A study of Mus musculus with 4 samples.

Results

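The AMPA and kainate receptor subunits of the mouse brain were followed here in wild-type and Bcas1 knockout animals. The family has 9 genes, Gria1 to Gria4 for the AMPA subunits and Grik1 to Grik5 for the kainate subunits, and all 9 were represented on the array. Every probe set whose only gene in the platform annotation was one of these subunits was taken, and none was dropped. This gave 18 of the 45037 probe sets tested, 10 for AMPA and 8 for kainate subunits, and 0 probe sets named a subunit together with another gene. The wild-type group was 2 C57BL/6 male mice (wildtype, +/+) and the knockout group was 2 C57BL/6 male mice (BCAS1 KO, -/-), all aged 8 to 9 weeks and bred from heterozygous (+/-) parents. Each mouse was 1 array, and total RNA of the dissected brain, called cerebrum in the sample descriptions, was labelled from 100 ng by a 3' amplification method. The labels do not state which part of Bcas1 the knockout allele removes.

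AMPA receptors carry most fast excitatory transmission in the brain. They are tetramers of GluA1 to GluA4, and the GluA2 subunit, after editing of its mRNA by ADAR enzymes, makes the channel nearly impermeable to calcium. Kainate receptors are related tetramers that act on both sides of the synapse; GluK1 to GluK3 can form channels alone, whereas GluK4 and GluK5 bind the ligand tightly but need one of the others. Cells of the oligodendrocyte lineage, where Bcas1 is active, also carry AMPA and kainate receptors and can be injured through them. The probe sets read RNA amount, and the deposited levels say nothing of editing or of protein.

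Each level is an RMA value in log2 units, so a step of 1 is a doubling. The arrays had medians of 6.49 to 6.51, and 16 of the 18 subunit probe sets lay above the median level of all probe sets. The brightest Bcas1 probe set measured 12.17 and 12.21 in wild type against 11.05 and 10.75 in the knockout, and so differed by -1.29 (SE 0.12; adjusted p 0.742 in limma), while its dimmer probe sets differed the other way. The second knockout array stood apart in transcripts of nasal tissue, such as Obp1a, an odorant-binding protein, at 8.92 against 3.41 to 4.15 on the other arrays. The mean of 6 nasal genes, some of which were chosen on these arrays, was 4.84 and 5.05 in wild type, 4.82 in the first knockout mouse and 7.57 in the second. The subunit results are therefore given with and without single arrays. In whole tissue, fewer cells of a type and less RNA per cell cannot be told apart.

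No AMPA or kainate subunit probe set passed the test between genotypes. By limma, with p-values adjusted by Benjamini-Hochberg over the whole table, 0 of the 18 had an adjusted p under 0.05, where 0.00444% of all probe sets did, and 0 of the 18 had an unadjusted p under 0.05, against 3.42% of all. The differences, knockout minus wild type, ran from -0.225 for a Gria4 probe set to 0.09 for probe sets of Gria3 and Gria4. They were negative for 12 probe sets and positive for 6, with a median of -0.015 beside a median of 0 over all probe sets. The adjusted p was 1 for every subunit probe set in limma. An exact permutation test of 2 against 2 mice cannot give a two-sided p below 0.333, so the size of each difference and its interval are what the arrays can offer.

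Gria1, which encodes GluA1, a subunit moved into synapses during potentiation, was the steadiest gene of the family. Its brightest probe set (1435239_at) measured 11.24 in both wild-type mice against 11.28 and 11.26 in the knockout. Both knockout values lay above both wild-type values, by amounts of a few hundredths. The difference was 0.03 (SE 0.069), with a 95% interval of -0.15 to 0.21 in limma, or 0.902-fold to 1.16-fold. The other Gria1 probe set (1448972_at) measured 11.06 and 11.05 in wild type against 11.05 and 11.03 in the knockout, so its groups touched and its difference was -0.015 (SE 0.069). The 4 arrays spanned 0.04 and 0.03 for these probe sets, against a median span of 0.21 over all probe sets.

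Gria2, which encodes the calcium-limiting subunit GluA2, had an even brightest probe set and uneven dimmer ones. The brightest (1421970_a_at), whose name ending marks probes shared by several transcripts of the gene, measured 12.50 and 12.43 in wild type against 12.46 and 12.45 in the knockout. Both knockout values fell between the wild-type values, and the difference was -0.01 (SE 0.072; 95% interval -0.20 to 0.18 in limma), or 0 after median-centring the arrays.

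The second Gria2 probe set (1434146_at) measured 11.71 in both wild-type mice, 11.84 in the first knockout mouse and 11.38 in the second. The third (1453098_at) measured 10.13 and 10.00 in wild type, 10.41 in the first knockout mouse and 9.69 in the second. On both, the wild-type pair lay between the knockout mice. Their mean differences were -0.1 (SE 0.16) and -0.015 (SE 0.25), each smaller than its error. With single arrays left out, the second ran from -0.33 to 0.13 and the third from -0.375 to 0.345. The interval of the third reached from -0.66 to 0.63, or 0.632-fold to 1.55-fold.

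**Figure D1:**
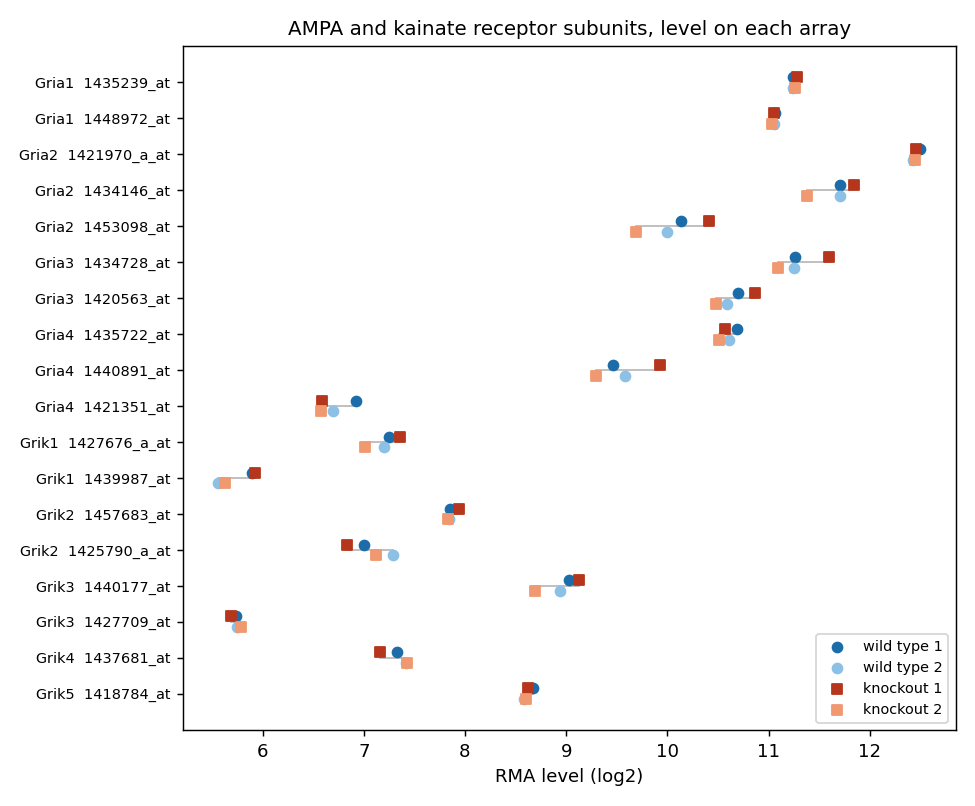
RMA level on a log2 scale (horizontal axis) of all 18 probe sets of the AMPA and kainate subunits, 1 row per probe set and 1 point per array (circles wild type, squares knockout; grey lines span the 4 arrays). The arrays lie within 0.04 of each other for Gria1 and up to 0.72 apart for a Gria2 probe set; positions of different probe sets are not comparable as amounts of RNA.

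Gria3, the X-linked gene of GluA3, showed the same spread on both of its probe sets. The brightest (1434728_at) measured 11.26 and 11.25 in wild type, 11.60 in the first knockout mouse and 11.09 in the second. The knockout mice thus lay on either side of a tight wild-type pair. The difference was 0.09 (SE 0.18; 95% interval -0.38 to 0.56 in limma), and it became -0.165 when the first knockout array was left out and 0.345 when the second was. The other probe set (1420563_at), matched in the annotation to a RefSeq mRNA, measured 10.70 and 10.59 in wild type against 10.87 and 10.48 in the knockout, in the same order, with a difference of 0.03 (SE 0.15) that ran from -0.165 to 0.225 with single arrays left out.

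Gria4 encodes GluA4, known from parvalbumin interneurons, cerebellar cells and young neurons, and its probe sets did not run one way. The brightest (1435722_at) measured 10.69 and 10.61 in wild type against 10.57 and 10.51 in the knockout. Both knockout mice lay below both wild-type mice, with a difference of -0.11 (SE 0.076; 95% interval -0.31 to 0.088 in limma). The dimmest (1421351_at), the one matched to a RefSeq mRNA, measured 6.92 and 6.70 in wild type against 6.59 and 6.58 in the knockout.

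That probe set also did not overlap between the groups. Its difference of -0.225 (SE 0.099; 95% interval -0.48 to 0.034 in limma) was the largest in the family by size, at an unadjusted p of 0.075 and adjusted p of 1 in limma. It was -0.23 and -0.22 with the first or second knockout array left out, but -0.115 without the first wild-type array and -0.335 without the second. The third Gria4 probe set (1440891_at) measured 9.46 and 9.58 in wild type against 9.93 and 9.29 in the knockout, again with the knockout mice outside the wild-type pair, and differed by 0.09 (SE 0.22), which became -0.23 when the first knockout array was dropped and 0.41 when the second was. Over the family 3 of 18 probe sets had genotypes that did not overlap, these 2 of Gria4 lower and 1 of Gria1 higher, where 27.1% of all probe sets did not overlap.

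Genes marking the cerebellum, where Gria4 is known to be active, were measured beside it. Gabra6, a GABA-A receptor subunit of cerebellar granule cells, measured 11.73 and 11.78 in wild type against 11.57 and 11.63 in the knockout. Zic1, a transcription factor of these cells, measured 12.42 and 12.44 in wild type against 12.29 and 12.26 in the knockout. Both differed by -0.155, with an SE of 0.073 for Gabra6 and 0.069 for Zic1, and they were picked after their values were seen. Barhl1, a dim transcription factor gene of granule cells, went the other way, at 5.01 and 5.23 in wild type against 5.50 and 5.53 in the knockout (difference 0.395, SE 0.099; unadjusted p 0.012 and adjusted p 1 in limma). Calb1 and Pcp2, which Purkinje cells express, differed by 0.045 and 0.02 in the whole tissue. The whole list of 7 cerebellar markers had differences from -0.155 to 0.395, 4 negative and 3 positive, with a median of -0.015. Its mean level was 10.83 to 10.84 on all 4 arrays. In that mean the dim Barhl1, higher in the knockout, offset the lower knockout means of Gabra6, Zic1 and Cbln3. The part of cerebellar cells in the Gria4 values was not tested.

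The principal kainate subunits varied between the mice by more than they differed between the genotypes. Grik1, which encodes GluK1, measured 7.25 and 7.20 in wild type against 7.36 and 7.01 in the knockout on its brightest probe set (1427676_a_at). The knockout mice again enclosed the wild-type pair, and the difference was -0.04 (SE 0.13; 95% interval -0.39 to 0.31 in limma). Its dim probe set (1439987_at) measured 5.90 and 5.56 in wild type against 5.93 and 5.63 in the knockout. There the first mouse of each group was the higher, and the difference was 0.05 (SE 0.16).

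Grik2 encodes GluK2, the main kainate subunit of hippocampal mossy fibre synapses. Its brightest probe set (1457683_at) measured 7.85 and 7.84 in wild type against 7.94 and 7.83 in the knockout, and so differed by 0.04 (SE 0.077; 95% interval -0.16 to 0.24 in limma). The other (1425790_a_at) measured 7.00 and 7.29 in wild type against 6.83 and 7.12 in the knockout. Within each group the mice were 0.29 apart on it, the second mouse being higher in both, and the difference of -0.17 (SE 0.15) was smaller than that gap.

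Grik3, which encodes GluK3, a subunit of low glutamate sensitivity, measured 9.03 and 8.94 in wild type against 9.13 and 8.69 in the knockout on its brightest probe set (1440177_at). The first knockout mouse was the highest of the 4 and the second the lowest, and the difference was -0.075 (SE 0.16; 95% interval -0.50 to 0.35 in limma). The dim probe set (1427709_at) measured 5.74 and 5.75 in wild type against 5.69 and 5.79 in the knockout. Its knockout order was the opposite one, and the difference was -0.005 (SE 0.076).

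The high-affinity kainate subunits had 1 probe set each. Grik4, the gene of GluK4, known for its high level in the CA3 field of the hippocampus, measured 7.33 and 7.42 in wild type against 7.16 and 7.43 in the knockout. The first knockout mouse alone was low, and the difference of -0.08 (SE 0.11; 95% interval -0.38 to 0.22 in limma) became 0.055 without that array. Grik5, the gene of the widely expressed GluK5, measured 8.67 and 8.58 in wild type against 8.62 and 8.60 in the knockout. The knockout values lay inside the wild-type range, with a difference of -0.015 (SE 0.075; 95% interval -0.21 to 0.18 in limma).

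**Figure D2:**
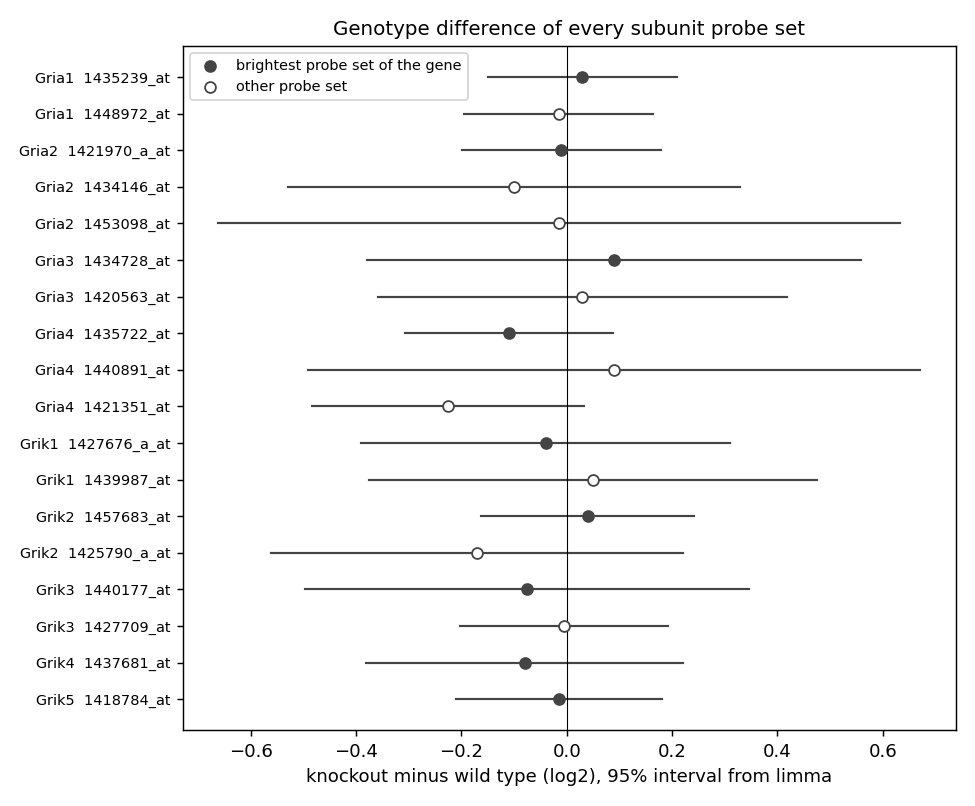
Knockout minus wild type on a log2 scale (horizontal axis) for the 18 subunit probe sets, with 95% intervals from limma (2 mice per group; filled points, brightest probe set of the gene; open points, other probe sets). Every interval includes 0, and the widths differ, from about that of Gria1 (-0.15 to 0.21) to that of Gria2 1453098_at (-0.66 to 0.63).

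A spread between the knockout mice recurred across the family, and the counts that describe it were chosen after the values were seen. On 8 of the 18 probe sets the first knockout array was the highest of the 4 and the second the lowest. These were 2 of Gria2, both of Gria3, 1 of Gria4 and the brightest ones of Grik1, Grik2 and Grik3. The same order held for 8.81% of all probe sets and for 10.6% of those above the median level. The opposite order, second knockout array highest and first lowest, held for 2 of the 18 (a dim Grik3 probe set and Grik4) and for 13.8% of all. After median-centring the arrays, or a repeated quantile normalization, 7 of the 18 had the first order. Probe sets of 1 gene share their target, so these counts are not independent.

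By size, the first knockout array exceeded the second by at least 0.3 on 8 of the 18 probe sets. The gap was 0.72 on Gria2 1453098_at, the dimmest of its gene but well above the median level, at 9.69 to 10.41. A reverse gap of at least 0.3 was found on 0 of the 18, and the wild-type arrays were that far apart on 1, of Grik1. Over all probe sets these shares were 7.32%, 7.47% and 7.47%. Above the median level, where 16 of the 18 lie, they were 7.15%, 2.66% and 3.82%. The median SD of the family was 0.060 between wild-type mice and 0.198 between knockout mice, and the medians over all probe sets were 0.057 and 0.085. The SD was larger in the knockout group for 12 of the 18, and for 59.0% of all probe sets.

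The median difference of the family moved with the arrays used. With all 4 it was -0.015. Dropping the first knockout array gave -0.12 and dropping the second gave 0.068, while the same step in wild type gave 0.0075 and -0.04. With the first knockout array dropped, 0 of the 18 passed the threshold in limma and 4 had an unadjusted p under 0.05, where 7.78% of all probe sets did. With the second dropped, 0 passed and 2 had an unadjusted p under 0.05, against 6.55% of all. Oligodendrocyte markers were also highest in the first knockout mouse: the mean of 6 of them was 12.13 and 12.145 in wild type, 12.25 in the first knockout mouse and 12.13 in the second, with a median gap of 0.115 between the knockout mice. Mog, a myelin surface protein and the 1 of these 6 with the full order of the subunits, measured 9.46 and 9.45 in wild type, 9.62 in the first knockout mouse and 9.32 in the second. The astrocyte mean was highest in the first knockout mouse too. Over 6 genes it was 11.44 and 11.45 in wild type, 11.53 in the first knockout mouse and 11.485 in the second. Gfap had the largest genotype difference of the 6 (0.285, SE 0.081). It measured 8.64 and 8.77 in wild type against 9.01 and 8.97 in the knockout. Gja1 had the full order, whereas Aldh1l1 was lowest in the first knockout mouse. The neuronal mean was not highest in the first knockout mouse. Over 7 genes it was 12.78 and 12.80 in wild type, 12.76 in the first knockout mouse and 12.77 in the second. Among these 7, Snap25 had the full order, at 14.15 and 14.17 in wild type against 14.18 and 14.06 in the knockout. Rbfox3 was also highest in the first knockout mouse, and the others were not. The actin 3' minus 5' signal, which grows as RNA degrades, stood at 1.14 in the first knockout mouse, 1.15 in the second, and 1.09 and 1.12 in wild type. In the second knockout mouse the oligodendrocyte mean lay close to wild type and the astrocyte mean above it. Of the astrocyte genes, Gfap and Aldh1l1 lay above both wild-type mice there, Gja1 below both, and the others within them. The nasal mean was high in that mouse alone. The part of these in the order of the subunits was not tested.

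**Figure D3:**
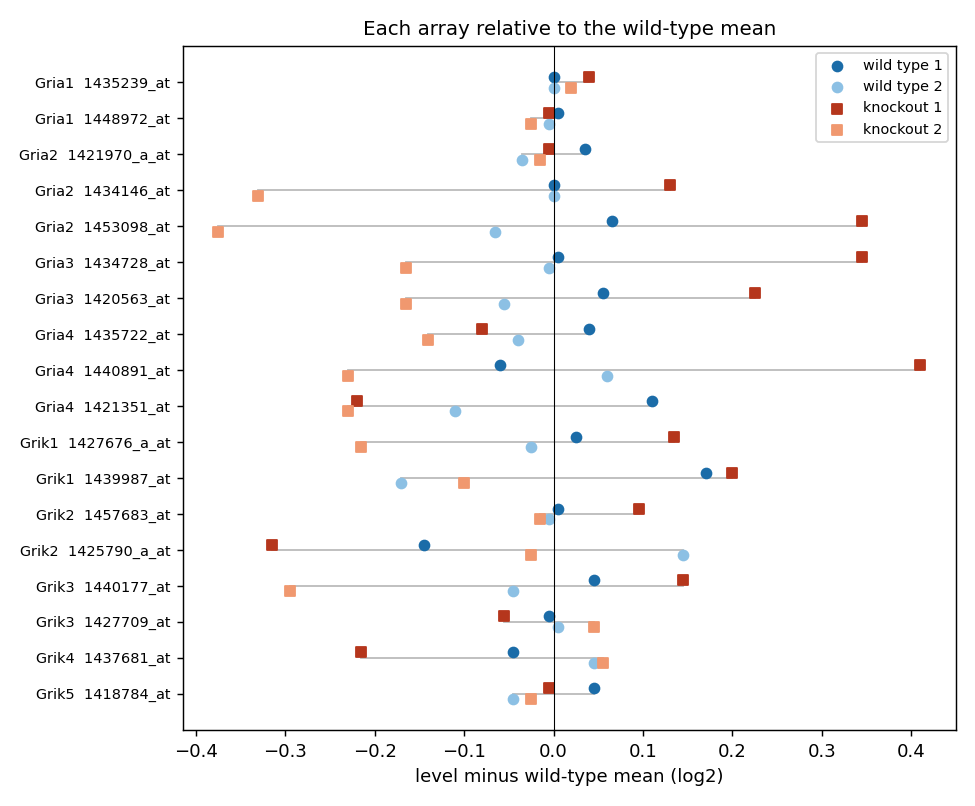
Level of each subunit probe set on each array minus its wild-type mean, on a log2 scale (horizontal axis; circles wild type, squares knockout, grey lines the span of the 4 arrays). For 8 rows the first knockout array is the rightmost point and the second knockout array the leftmost, as for Gria3, whose brightest probe set spans 0.51.

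Probe sets of 1 gene were then compared with each other on the same array, which removes what they share. For each gene with more than 1 probe set, the brightest was subtracted from each other one, and the genotype difference of that gap was tested in limma over all 16752 such pairs of the table. Of the 9 pairs in the family, 0 had an adjusted p under 0.05, against 0.00597% of all pairs, and 0 had an unadjusted p under 0.05, against 3.27%. The smallest unadjusted p in the family was 0.271, for Grik2 (difference -0.21, SE 0.17). The largest disagreement upwards was 0.2 (SE 0.20), for the Gria4 probe set 1440891_at.

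For Gria2 the gap differed more between the knockout mice than between the wild-type mice. The dimmest Gria2 probe set (1453098_at) minus the brightest one gave -2.37 and -2.43 in wild type, -2.05 in the first knockout mouse and -2.76 in the second. For the intermediate Gria2 probe set the gap was -0.79 and -0.72 in wild type, -0.62 in the first knockout mouse and -1.07 in the second. The brightest Gria2 probe set itself spanned 0.07 over the 4 arrays, so the spread belongs to the other probe sets of that gene.

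Gria4 had a like gap on 1 side. Its probe set 1440891_at minus the brightest gave -1.23 and -1.03 in wild type, -0.64 in the first knockout mouse and -1.22 in the second. The first knockout mouse stood apart and the second lay within the wild-type values. The Gria3 probe sets kept together instead: the gap was -0.56 and -0.66 in wild type against -0.73 and -0.61 in the knockout, although each probe set alone spanned 0.39 or more. For Gria1 the gap varied by 0.05 over the arrays. Grik1 differed between the wild-type mice instead, at -1.35 and -1.64 against -1.43 and -1.38 in the knockout. For Grik2 the mice of both groups were apart, at -0.85 and -0.55 in wild type against -1.11 and -0.71 in the knockout. The Grik3 gap was -3.29 and -3.19 in wild type, -3.44 in the first knockout mouse and -2.90 in the second. There the knockout mice again enclosed the wild-type pair, in the opposite order to Gria2.

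**Figure D4:**
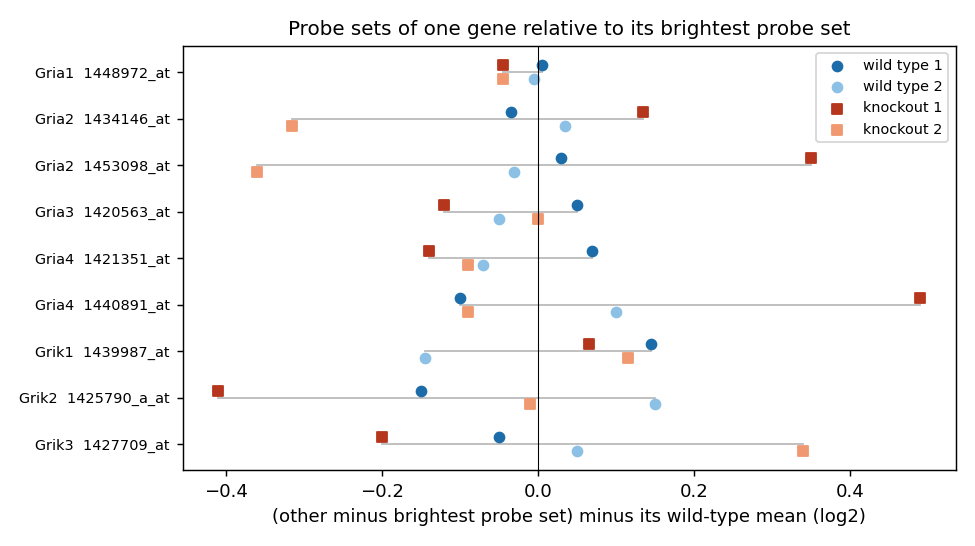
Gap between each other probe set and the brightest probe set of its gene, minus the wild-type mean of that gap, on a log2 scale (horizontal axis; circles wild type, squares knockout, grey lines the span). The Gria2 rows spread by 0.45 and 0.71 between arrays and the Gria1 row by 0.05.

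Genes that act with these receptors gave 0 calls as well. Lists of auxiliary subunits, trafficking proteins, kinases, editing enzymes and glutamate handling, written from general knowledge, held 71 genes in 7 groups, of which 65 were measured and represented by their brightest probe set. Of the 65, 0 passed in either direction in limma, where 0.0055% of all genes did. The differences ran from -0.22 to 0.175, with 39 negative, 24 positive and 2 at 0, and their median was -0.025 beside 0.005 over all genes. The genotypes did not overlap for 20 of the 65, 14 lower and 6 higher, and for 28.3% of all genes. An unadjusted p under 0.05 was found for 1 of the 65, Arc, and for 2.75% of all genes.

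Among the 22 measured AMPA auxiliary genes, 13 differences were negative and 8 positive, with a median of -0.025. Cacng4, a transmembrane regulator of AMPA receptors that is also made by oligodendrocyte precursors, measured 9.34 in both wild-type mice against 9.50 and 9.49 in the knockout, and so differed by 0.155 (SE 0.068; adjusted p 1 in limma). Olfm1, a secreted protein found with AMPA receptors, measured 12.74 and 12.73 in wild type against 12.60 and 12.64 in the knockout, with the groups apart by 0.115 downwards. Frrs1l, an assembly factor, differed by -0.105 (SE 0.088), and Shisa7 by 0.15 (SE 0.11). Of the 4 genes of kainate receptor partners, C1ql2, a secreted protein of mossy fibres that recruits them, differed by 0.175 (SE 0.081). The Neto1 and Neto2 differences, for the auxiliary subunits, were -0.05 (SE 0.074) and -0.03 (SE 0.081).

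In the trafficking and scaffold list, 12 of 21 measured genes had negative differences and 9 positive ones, with a median of -0.02. Arc, an activity-induced protein that drives AMPA receptor endocytosis, measured 10.41 and 10.32 in wild type against 10.16 and 10.13 in the knockout. Both knockout mice lay below both wild-type mice, at a difference of -0.22 (SE 0.075; unadjusted p 0.035 and adjusted p 1 in limma). Grip1, a scaffold that binds the GluA2 tail, measured 8.11 and 8.02 in wild type against 7.93 and 7.88 in the knockout, and so differed by -0.16 (SE 0.076). Lrrtm2, a synaptic adhesion protein that holds AMPA receptors, differed by -0.14 (SE 0.071), and Ap2m1, a subunit of the endocytic adaptor, by 0.085 (SE 0.071).

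The editing enzymes did not pass the test either. Adar measured 9.81 and 9.82 in wild type against 10.02 and 9.95 in the knockout, and so differed by 0.17 (SE 0.072; adjusted p 1 in limma). Adarb1, the enzyme that edits the GluA2 pore site, measured 9.35 and 9.49 in wild type against 9.37 and 9.45 in the knockout, with the knockout inside the wild-type range. Adarb2 differed by -0.125 (SE 0.13). Of 7 measured kinases and phosphatases, 5 had negative differences and 1 a positive one; Ppp1cc, a catalytic subunit of protein phosphatase, differed by -0.14 (SE 0.072) and Prkaca, of protein kinase A, by -0.1 (SE 0.12). Camk2b and Camk2a, kinases of synaptic plasticity, differed by -0.045 (SE 0.077) and -0.035 (SE 0.070).

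Glutamate handling was close between the groups in all 7 measured genes, with differences from -0.09 to 0.04. Slc17a7, the vesicular transporter of cortical excitatory neurons, measured 8.17 and 8.23 in wild type against 8.14 and 8.08 in the knockout. Slc17a6, its subcortical counterpart, differed by 0.04 (SE 0.074). The transporters Slc1a6 and Slc1a1 differed by -0.06 (SE 0.082) and -0.03 (SE 0.072). Grid1, of the delta receptors, differed by 0.055 (SE 0.10). The order with the first knockout array highest and the second lowest was found for 10 of the 65 pathway genes, among them Slc1a3, an astrocyte glutamate transporter, at 11.16 and 11.19 in wild type against 11.35 and 11.01 in the knockout. That order held for 15.4% of the pathway genes and for 6.72% of all genes by their brightest probe set. The pathway genes all lie above the median level, where it held for 10.6% of probe sets.

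**Figure D5:**
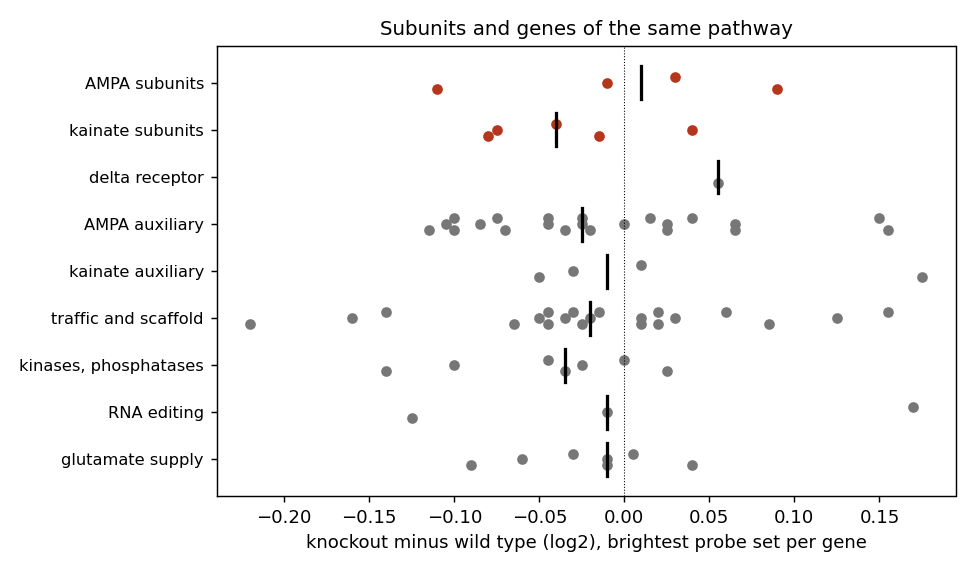
Knockout minus wild type on a log2 scale (horizontal axis) for the brightest probe set of each gene, 1 point per gene, in the subunit groups (red) and 7 groups of genes that act with them (grey), with black bars at the medians. All points lie between -0.22 and 0.175, and the group medians lie between -0.04 and 0.055.

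The labelled tissue was checked against markers. Neuronal markers were bright, the dimmest of 7 being Tubb3 with arrays at 10.55 to 10.82. Oligodendrocyte markers had a median difference of 0.062 over 6 measured genes and astrocyte markers of 0.032 over 6, with 0 members past the threshold in limma. Granule cell and Purkinje cell genes of the cerebellum, other than Barhl1, were bright on all 4 arrays, although the descriptions name the cerebrum. Gabra6 lay at 11.57 to 11.78 and Pcp2 at 11.50 to 11.61, while Barhl1 was dim at 5.01 to 5.53. Gria2 and Gria4 are also known from cerebellar cells, and how much of their level came from them was not tested.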

How the data were processed

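The authors deposited 1 table of log2 levels made with RMA, per the submitters' processing notes. This method corrects background, normalizes between arrays and summarises the probes of a set, and its settings were not stated. Deposited values have 2 decimals and no detection calls, so dim levels may be background and their differences compressed. Of 45101 rows, 64 control probe sets were left out. Genes came from the platform annotation (34945 probe sets with 1 gene, 932 with several, 9160 unnamed here), which placed the 9 subunits on RefSeq genes of GRCm38.p6 by Entrez number. Knockout was compared with wild type by limma 3.58.1 in R 4.3.3 (lmFit, eBayes, two-sided) on all 45037 probe sets, with 2 residual and 2.74 prior degrees of freedom, a Benjamini-Hochberg threshold of 0.05 and 95% intervals. The script was tested on simulated data. Each array is a separate mouse per the labels, and precision is limited by their number.

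The subunits, lists and tests were chosen with earlier results of these data known. The rule named every subunit, gave per-array values for the brightest probe set of each gene (and for any with a difference of at least 0.3 or an unadjusted p under 0.05) and up to 4 genes per pathway list by smallest p. Per-array values of the other subunit probe sets, and of Slc1a3, Snap25 and Gfap, were added after their values were seen. Marker lists of precursor cells, microglia, endothelium, choroid plexus, hippocampus and striatum had median differences of 0.005, -0.05, 0.055, 0.06, 0.065 and -0.01. Alternatives were other scalings, only probe sets above the median, a variance model with intensity trend, a replicate block, single arrays left out, and the mean of a gene's probe sets.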

Additional observations from a re-analysis of the deposited data

How the results depend on the processing

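Under all alternatives run, 0 subunit probe sets and 0 subunit pairs passed the threshold in limma. Over all probe sets the 2 calls became 1 among probe sets above the median level, 10 with an intensity trend and robust variance, and 0 with the replicate block or without any single array (0 to 0). The replicate block takes mouse numbers as pairs. Each number occurs in both genotypes, so the block cannot change a difference, and the median subunit difference of -0.015 is the same by design. The labels do not say that a number marks a shared litter or day. Same-numbered mice deviated together with a correlation of 0.24 over 45037 probe sets, which are not independent.

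The median subunit difference ran from -0.12 to 0.068 with single arrays left out. On the brightest probe set of each gene, directions were kept in 80 of 90 values under alternatives, and 10 changed. Many of the kept ones were fixed in advance, since the level filter, the variance model and the replicate block cannot change a difference. Neither can the mean of a gene's probe sets for Grik4 and Grik5, which have 1 each. Gria2 was 0 after median-centring, Grik1 was 0.005 and Grik2 -0.065 as the mean of all their probe sets. With single arrays left out, Gria2 ran from -0.045 to 0.025, Gria3 from -0.165 to 0.345, Grik1 from -0.215 to 0.135, Grik2 from -0.015 to 0.095, Grik3 from -0.295 to 0.145, Grik4 from -0.215 to 0.055 and Grik5 from -0.06 to 0.03. Gria1 (0.02 to 0.04) and Gria4 (-0.15 to -0.07) kept their sign on that probe set. Among the other probe sets, Gria4 1440891_at ran from -0.23 to 0.41, Gria2 1453098_at from -0.375 to 0.345, Gria2 1434146_at from -0.33 to 0.13, Gria3 1420563_at from -0.165 to 0.225, Grik1 1439987_at from -0.12 to 0.22 and Grik3 1427709_at from -0.055 to 0.045. The lone array of a group is then assumed to vary like the others. The cause of these shifts was not tested beyond the array values given.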
